A study of Homo sapiens with 18 samples.

Results

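A list of 40 genes that work at the G1/S boundary of the cell cycle and in DNA replication was followed through the transcriptome and the RNA polymerase II (RNAPII) peak lists of MCF10A-ErSrc cells. The genes were listed by their function, but with earlier results of these data known. All 40 were found by gene ID among the 23604 genes of the expression tables. Of these, 39 had enough reads to be tested, among 16948 tested genes. GINS1 was the exception, because 85.5% of its reads stood in a second row under a RefSeq accession.

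Replication starts from origins that are licensed in G1, when ORC, CDC6 and CDT1 load the MCM2-7 ring onto DNA. At the G1/S transition cyclin E and E2F activity rise, CDC45 and GINS turn the loaded ring into an active helicase, and the polymerases, the sliding clamp PCNA and its loader RFC follow. E2F factors bind promoters of many of these genes and drive their RNA as cells enter S phase, so the RNA of the set is commonly read as a mark of proliferating cells.

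MCF10A is a non-transformed human breast epithelial cell line, and the ErSrc derivative carries v-Src fused to a part of the oestrogen receptor, so that tamoxifen switches the oncoprotein on and the cells become transformed. Every group is thus the same line with the same inducible transgene. The 4 groups were cells without tamoxifen that received DMSO (NT) or triptolide (NT + TPL, dose label TPL-125nM), and tamoxifen-treated cells that received DMSO (TAM) or triptolide at the same dose (TAM + TPL), all for 4 h. Triptolide is a covalent inhibitor of the XPB subunit of TFIIH and blocks the start of transcription by RNAPII. RNA was sequenced in 2 libraries per group, described as independent biological replicates, and RNAPII was mapped by ChIP-seq in the same 4 conditions, with 1 deposited peak list per condition. The 5 comparisons were TPL within NT cells, TPL within TAM cells, TAM against NT with DMSO, TAM against NT with TPL, and the difference between both TPL effects.

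The libraries held between 7461309 and 8349448 counts, and single genes of the list had from 0 to 603 counts in a library, which limits the precision for the lowest of them. Among basal epithelial markers KRT5 (434 to 6250 FPKM), KRT17 (742 to 7284 FPKM) and ITGB4 (209 to 724 FPKM) were high in every library. KRT14 was at least 91.2 FPKM and LAMB3 at least 27.0 FPKM, but TP63 ran from 0.28 to 24.2 FPKM. Among markers of other lineages PTPRC reached at most 2.14 FPKM, PECAM1 1.69 FPKM, CD3E 0.17 FPKM and COL3A1 0.05 FPKM. COL1A1 reached 6.14 FPKM, and CD14 lay between 5.75 and 18.6 FPKM. Values are relative to the total RNA sequenced in each library, so a loss of RNA common to all genes after TPL would not be seen. In bulk RNA, fewer cycling cells and less RNA per cell cannot be told apart.

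To show what the promoters of the list share, the 250 bases upstream of the main transcription start site (TSS) of each gene were searched on both strands for the E2F motifs TTTCCCGC, TTTGGCGC, TTTCGCGC and TTTGCCGC, which may overlap each other. At least 1 match was present in 17 of the 40 genes (42.5%), against 667 of 16584 genes with the same window (4.02%). The CCAAT box, searched in the same way, was present in 26 of the 40 genes (65%) and in 34.1% of all genes. The 16 matches nearest the TSS that could be shown are given 5′ to 3′ in the direction of transcription (GENCODE transcripts on GRCh37), as 30 bases with the matches in capitals; MCM4 also had a match.
MCM3 (chr6:52149696-52149725, minus strand): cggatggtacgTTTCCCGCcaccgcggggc
MCM5 (chr22:35795927-35795956, plus strand): ccagaagTTTCGCGCCAAAttgttccgcac
MCM6 (chr2:136634081-136634110, minus strand): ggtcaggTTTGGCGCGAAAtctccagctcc
MCM7 (chr7:99699021-99699050, minus strand): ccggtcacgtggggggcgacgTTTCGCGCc
CDT1 (chr16:88870151-88870180, plus strand): ccagggcgcccGCGGGAAAtttggcgggaa
GINS2 (chr16:85722573-85722602, minus strand): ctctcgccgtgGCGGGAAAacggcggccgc
E2F1 (chr20:32274195-32274224, minus strand): GCGGCAAAaaggaTTTGGCGCgtaaaagtg
E2F2 (chr1:23857749-23857778, minus strand): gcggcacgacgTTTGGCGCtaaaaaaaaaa
CDC25A (chr3:48229933-48229962, minus strand): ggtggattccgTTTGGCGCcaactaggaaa
POLA1 (chrX:24711887-24711916, plus strand): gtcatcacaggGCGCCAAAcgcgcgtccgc
POLE (chr12:133263929-133263958, minus strand): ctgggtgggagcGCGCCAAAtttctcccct
RFC3 (chr13:34392220-34392249, plus strand): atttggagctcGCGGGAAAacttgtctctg
LIG1 (chr19:48673697-48673726, minus strand): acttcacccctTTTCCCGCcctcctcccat
TYMS (chr18:657603-657632, plus strand): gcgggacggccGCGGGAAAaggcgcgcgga
UHRF1 (chr19:4909483-4909512, plus strand): caaatgccgagttttcGCGGGAAAaaaatc
FAM111B (chr11:58874647-58874676, plus strand): agcccttctagGCGGGAAAagttcagctga
The matches nearest the TSS began between 9 bases (MCM7) and 195 bases (MCM5) upstream of it in these 16 genes, and in MCM5 and MCM6 matches on opposite strands overlapped. A match describes these letters only.

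For 2 of the 6 genes whose TPL responses differed most between NT and TAM cells by p-value, the whole upstream window is shown, since no annotated exon lies in it. Capitals mark the E2F match in CDT1 and the CCAAT boxes, read on either strand, in PCNA, which had no E2F match.
CDT1 (chr16:88869947-88870196, plus strand): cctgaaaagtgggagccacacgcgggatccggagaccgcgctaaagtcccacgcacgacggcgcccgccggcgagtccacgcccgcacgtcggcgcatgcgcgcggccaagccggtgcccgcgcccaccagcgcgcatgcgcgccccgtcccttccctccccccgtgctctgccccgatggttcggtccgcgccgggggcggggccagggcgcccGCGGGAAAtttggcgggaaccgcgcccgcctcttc
PCNA (chr20:5100605-5100854, minus strand): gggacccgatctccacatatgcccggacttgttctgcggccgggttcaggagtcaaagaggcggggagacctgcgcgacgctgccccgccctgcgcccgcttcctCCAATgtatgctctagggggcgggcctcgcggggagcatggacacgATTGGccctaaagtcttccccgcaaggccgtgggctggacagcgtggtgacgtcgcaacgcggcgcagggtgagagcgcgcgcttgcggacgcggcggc
The upstream windows of FAM111B, RRM2, ORC1 and RRM1, the other 4, hold annotated exons of the gene itself or of PRPF38A and are not shown in full.

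In TAM cells the replication genes stood higher than in NT cells. All 39 fitted differences between TAM and NT with DMSO were positive, and 21 of the genes (53.8%) passed an adjusted p of 0.05 (edgeR quasi-likelihood test, Benjamini-Hochberg over all genes), all of them higher in TAM. Among all tested genes 3.46% were called higher and 3.39% lower. The median log2 fold change of the list was 1.39, against -0.03 for all genes. Summed over the 40 genes, the level was 180 and 174 FPKM in NT and 363 and 340 FPKM in TAM. With TPL it was 171 and 196 FPKM in NT cells and 214 and 230 FPKM in TAM cells.

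**Figure D1:**
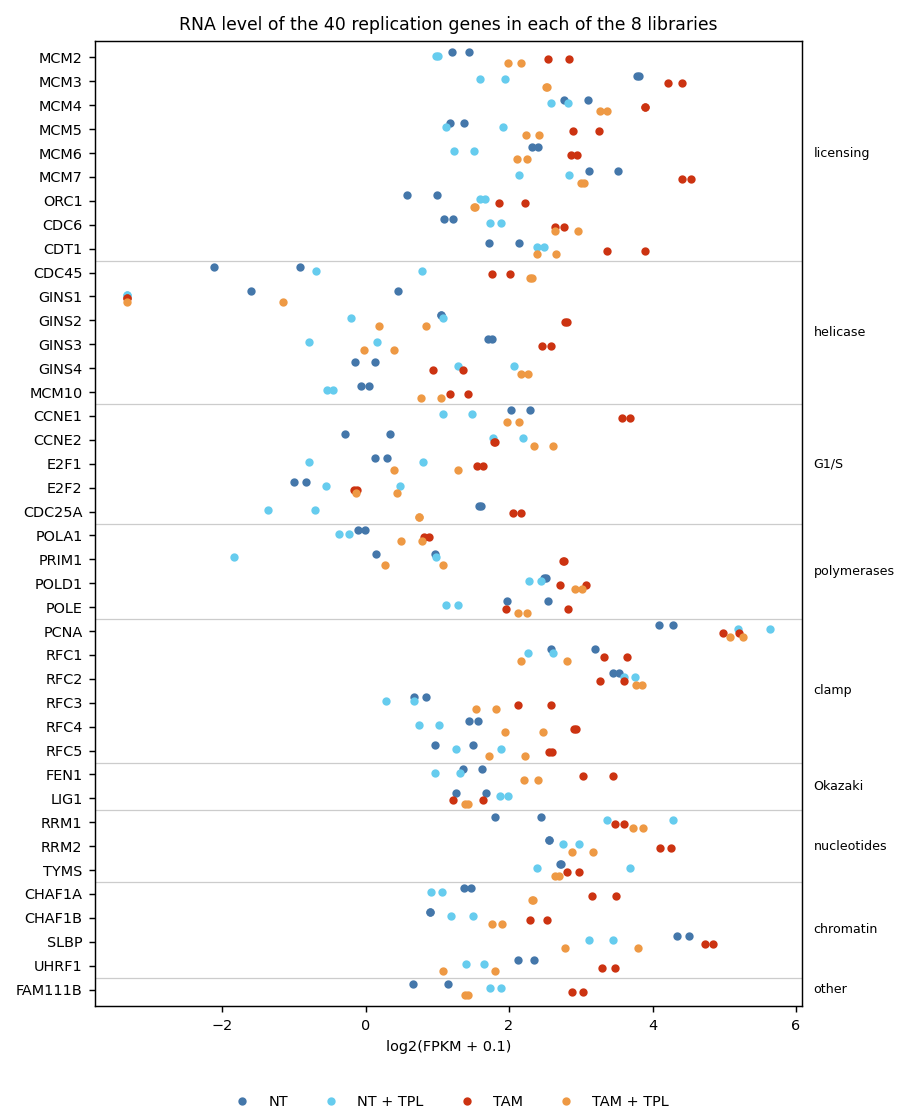
RNA level of each of the 40 genes, as log2(FPKM + 0.1), with 1 point per library and 2 libraries per group; genes are ordered by role, and values of 0 stand at the left edge. For most genes the 2 TAM points lie to the right of the 2 NT points, and the TAM + TPL points lie to the left of the TAM points.

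The 5 genes with the largest rises among those that passed are given first. CDC45, which joins the helicase at origin firing, was at 0.43 and 0.13 FPKM in NT and at 3.95 and 3.29 FPKM in TAM. Its counts were only 7 and 2 in NT, and the log2 fold change was 3.64 ± 0.73 (SE; edgeR adjusted p = 0.0316). FAM111B, a protease-like gene that rises in S phase, was at 1.48 and 2.12 FPKM in NT and at 8.04 and 7.23 FPKM in TAM. Its groups did not overlap, and the log2 fold change was 2.16 ± 0.24 (edgeR adjusted p = 0.00301).

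CHAF1A, the large subunit of the histone chaperone CAF-1, was at 2.67 and 2.49 FPKM in NT and at 11.1 and 8.78 FPKM in TAM (log2 fold change 1.96 ± 0.21, edgeR adjusted p = 0.00260). MCM5, a subunit of the MCM ring, was at 2.48 and 2.15 FPKM in NT and at 9.45 and 7.29 FPKM in TAM (1.87 ± 0.34, edgeR adjusted p = 0.0217). CCNE2, a cyclin E, was at 0.72 and 1.17 FPKM in NT and at 3.39 and 3.35 FPKM in TAM (1.85 ± 0.32, edgeR adjusted p = 0.0183). In each of the 5 genes both TAM libraries stood above both NT libraries. Such separation of called genes, here and in the paragraphs below, follows largely from their choice as called changes. Its share over all genes was not counted.

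By role, the higher genes included 7 of 9 licensing genes (MCM2, MCM4, MCM5, MCM7, ORC1, CDC6 and CDT1), 2 of 5 helicase activation genes (CDC45 and MCM10), and 2 of 5 G1/S regulators (CCNE1 and CCNE2). Among the clamp and its loader 3 of 6 passed (PCNA, RFC3 and RFC4), in nucleotide supply 2 of 3 (RRM1 and RRM2, the subunits of ribonucleotide reductase), and in histone and chromatin supply 3 of 4 (CHAF1A, CHAF1B and UHRF1). The flap endonuclease FEN1 passed and the ligase LIG1 did not. None of the 4 polymerase and primase genes passed, although their fitted values were positive, from 0.19 for POLE to 2.23 for PRIM1. The genes with the smallest differences were RFC2 (0.01) and LIG1 (0.08).

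The number of calls depended on single libraries and on the scaling. At equal GAPDH it was 8, with a median of 0.89 where that of all genes was -0.50, and MCM5 and CCNE2 lost their calls. It was 4 without NT replicate 1, 4 without NT replicate 2, 4 without TAM replicate 1, 6 without TAM replicate 2 and 12 without either TAM + TPL library, while the median stayed between 1.14 and 1.39 in the fits that left out a library. The calls of CDC45 and MCM5 were lost without any 1 of the NT, TAM or TAM + TPL libraries, and that of CCNE2 without NT replicate 1 or either TAM library, whereas FAM111B and CHAF1A passed in all 8 such fits. None of the genes met the study's stricter thresholds of an adjusted p of 0.001 and a log2 fold change of 1.2, which 0.378% of all genes met in this direction.

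With TPL in both arms, fewer of the differences between TAM and NT were called. In these libraries, which are other libraries than those with DMSO, 5 genes (12.8%) were higher in TAM and none lower, beside 2.83% and 4.21% of all genes. The median log2 fold change was 0.53, and 31 of the 39 fitted values were positive. The same 8 libraries also enter the TPL comparisons, which are therefore not independent of these.

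**Figure D2:**
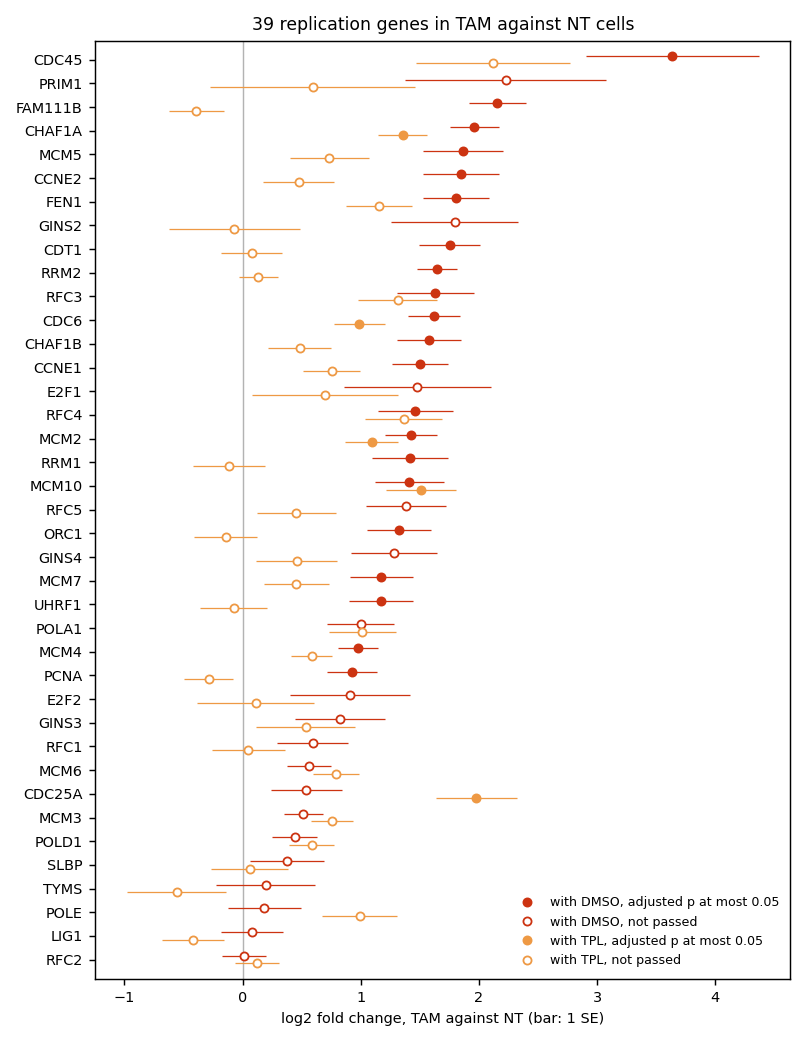
Fitted log2 fold change of TAM against NT for 39 genes, with DMSO (red) and with TPL (orange); bars are 1 SE of the edgeR fit and filled points passed an adjusted p of 0.05. All red points are at or above 0, from 0.01 for RFC2 to 3.64 for CDC45, and 8 orange points are below 0.

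CDC25A, the phosphatase that activates CDK2 at G1/S, was at 0.29 and 0.51 FPKM in NT + TPL and at 1.58 and 1.57 FPKM in TAM + TPL (log2 fold change 1.98 ± 0.34, edgeR adjusted p = 0.0182). It had not passed with DMSO, where it was at 2.96 and 2.90 FPKM in NT and at 4.38 and 4.06 FPKM in TAM. MCM10, a firing factor, was at 0.59 and 0.63 FPKM in NT + TPL and at 1.97 and 1.60 FPKM in TAM + TPL (1.51 ± 0.30, edgeR adjusted p = 0.0297). All 3 of these pairs of groups were separate.

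CHAF1A was at 1.78 and 2.0 FPKM in NT + TPL and at 4.95 and 4.90 FPKM in TAM + TPL (1.35 ± 0.21, edgeR adjusted p = 0.0120). MCM2 was at 1.92 and 1.87 FPKM in NT + TPL and at 3.85 and 4.37 FPKM in TAM + TPL (1.09 ± 0.22, edgeR adjusted p = 0.0324). CDC6, which loads the MCM ring with ORC, was at 3.21 and 3.6 FPKM in NT + TPL and at 7.68 and 6.13 FPKM in TAM + TPL (0.99 ± 0.21, edgeR adjusted p = 0.0406). In all 3 genes both TAM + TPL libraries stood above both NT + TPL libraries.

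The calls of MCM10, MCM2 and CDC6 were lost whichever library was left out, and also at equal GAPDH and with no filter on low counts. That of CDC25A was lost without any 1 of the TAM or TAM + TPL libraries, and that of CHAF1A without either TAM + TPL library. The number of calls was 0 without either TAM + TPL library, 1 without either TAM library, and 2 without NT replicate 1, NT replicate 2 or NT + TPL replicate 1, and the median was 0.87 without NT + TPL replicate 2. It was 14 in DESeq2, for which the share of all genes called is not given here.

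In TAM cells TPL lowered part of the list and raised none of it. With TPL 17 genes (43.6%) fell and 0 rose (of 9 positive fitted values that of GINS4 had an unadjusted p under 0.05, and DESeq2 called 1 riser), beside 18.6% of all genes that fell and 14.3% that rose. The median log2 fold change was -0.75, against 0.05 for all genes. The TAM libraries with DMSO are the same as in the comparison with NT above and the values of both comparisons depend on them.

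GINS2, a subunit of the GINS complex, was at 6.78 and 6.89 FPKM in TAM and at 1.69 and 1.04 FPKM in TAM + TPL (log2 fold change -2.36 ± 0.55, edgeR adjusted p = 0.0183). GINS3, of the same complex, was at 5.38 and 5.92 FPKM in TAM and at 0.88 and 1.22 FPKM in TAM + TPL (-2.36 ± 0.41, edgeR adjusted p = 0.00600). UHRF1, which keeps DNA methylation through replication, was at 11.04 and 9.70 FPKM in TAM and at 3.39 and 2.01 FPKM in TAM + TPL (-1.98 ± 0.28, edgeR adjusted p = 0.00282). The 3 genes were lower in both TPL libraries than in both DMSO libraries.

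MCM3, a subunit of the MCM ring, was at 21.1 and 18.5 FPKM in TAM and at 5.61 and 5.69 FPKM in TAM + TPL (-1.83 ± 0.17, edgeR adjusted p = 0.000704). It was the only gene of the list past the study's stricter thresholds in this comparison, which 2.04% of all genes met on the falling side. CCNE1, the other cyclin E, was at 12.8 and 11.8 FPKM in TAM and at 4.29 and 3.81 FPKM in TAM + TPL (-1.65 ± 0.24, edgeR adjusted p = 0.00294).

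The other genes that fell were MCM2, MCM4, MCM6, MCM7, CDT1, CDC25A, RFC1, FEN1, RRM2, CHAF1A, SLBP and FAM111B, with log2 fold changes from -1.60 (FAM111B) to -0.63 (MCM4). By role they made up 6 of the 9 licensing genes and 3 of the 4 genes of histone and chromatin supply, but 0 of the 4 polymerase and primase genes, of which 1 had an unadjusted p under 0.05. Without TAM replicate 1 or TAM + TPL replicate 1 the number of calls was 7, without TAM replicate 2 it was 9, and without TAM + TPL replicate 2 it was 8. GINS2 lost its call without any 1 of these 4 libraries. GINS3, UHRF1, MCM3 and CCNE1 passed in all 8 fits that left out a library.

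In NT cells the same treatment moved the list in both directions. Here 7 genes rose and 7 fell (17.9% each), close to the 17.2% of all genes that rose and the 19.8% that fell, and the median log2 fold change was -0.24, against 0.09 for all genes. The counts of the list in each direction were thus near the background of this comparison. The split depended on the scaling, with 8 genes that rose and 4 that fell by upper quartile and 4 and 10 at equal GAPDH. The median of all genes moved with the scaling too, to 0.31 by upper quartile and to -0.26 at equal GAPDH. Relative to it the median of the list was -0.32 and -0.35. The shares of all genes called at these scalings are not given here.

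Among the risers, CCNE2 went from 0.72 and 1.17 FPKM in NT to 4.49 and 3.31 FPKM in NT + TPL (log2 fold change 2.03 ± 0.32, edgeR adjusted p = 0.00388). GINS4 went from 0.99 and 0.80 FPKM to 2.34 and 4.08 FPKM (1.85 ± 0.36, edgeR adjusted p = 0.00884). RRM1, the large subunit of ribonucleotide reductase, went from 5.32 and 3.4 FPKM to 19.4 and 10.2 FPKM (1.75 ± 0.32, edgeR adjusted p = 0.00697). These 3 genes had unequal TPL libraries, but none of their groups overlapped.

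PCNA went from 19.4 and 17.0 FPKM in NT to 36.5 and 49.5 FPKM in NT + TPL (1.24 ± 0.21, edgeR adjusted p = 0.00527), the highest level of the list in any group. FAM111B went from 1.48 and 2.12 FPKM to 3.61 and 3.23 FPKM (0.95 ± 0.24, edgeR adjusted p = 0.0206). The remaining risers were ORC1 and CDC6, both of the licensing step.

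Among the fallers, CDC25A went from 2.96 and 2.90 FPKM in NT to 0.29 and 0.51 FPKM in NT + TPL (-2.91 ± 0.34, edgeR adjusted p = 0.00131). MCM3 went from 13.7 and 13.9 FPKM to 2.92 and 3.74 FPKM (-2.08 ± 0.18, edgeR adjusted p = 0.000468), and it alone passed the stricter thresholds, which 2.71% of all genes met on the falling side. GINS3 went from 3.28 and 3.17 FPKM to 0.48 and 1.02 FPKM (-2.07 ± 0.41, edgeR adjusted p = 0.00931). Within the MCM ring MCM3 and MCM6 fell, and MCM2, MCM4, MCM5 and MCM7 did not pass, with values from -0.79 (MCM7, which passed in some other settings, among them DESeq2 and equal GAPDH) to 0.31 (MCM5, -0.02 at equal GAPDH).

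SLBP, which binds the stem-loop of replication histone mRNA, went from 22.7 and 20.2 FPKM to 8.52 and 10.8 FPKM (-1.15 ± 0.32, edgeR adjusted p = 0.0302). POLE, the catalytic subunit of polymerase epsilon, went from 3.83 and 5.75 FPKM to 2.33 and 2.08 FPKM (-1.13 ± 0.32, edgeR adjusted p = 0.0310). CCNE1 and MCM6 also fell. In these 4 genes both TPL libraries lay below both NT libraries.

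The number of calls was 9 without NT replicate 1 and 8 without NT replicate 2, and the median was -0.06 without NT + TPL replicate 1 and -0.10 without NT replicate 2. The call of GINS4 was lost without NT replicate 2, and that of FAM111B without NT replicate 1 or NT + TPL replicate 1. SLBP lost its call without any 1 of the NT, NT + TPL or TAM libraries, and POLE without NT replicate 2 or any 1 of the NT + TPL or TAM + TPL libraries. By upper quartile SLBP and POLE lost their calls, as did POLE in limma on log2(FPKM + 1), and at equal GAPDH FAM111B lost its call. CCNE2, RRM1, PCNA, CDC25A, MCM3 and GINS3 passed in all 8 fits.

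The NT and TAM comparisons of TPL share no library. Of the 7 fallers in NT cells, 6 also fell in TAM cells (CCNE1, CDC25A, GINS3, MCM3, MCM6 and SLBP), which was 6 of the 17 fallers there. The shares of all genes called in both comparisons, in the same or in opposite directions, were not counted. The overlap can therefore not be read as a trait of the list. FAM111B alone was called in opposite directions, and its rise in NT cells was not called at equal GAPDH (log2 fold change 0.57, edgeR adjusted p = 0.192; from 0.00512 to 0.192 over the alternatives). The 2 cyclin E genes, which activate the same kinase, had fitted values of opposite sign in both cell states. CCNE1 fell in NT cells (-0.90) and in TAM cells (-1.65). CCNE2 rose in NT cells (2.03) and had a value of 0.66 in TAM cells that did not pass (edgeR adjusted p = 0.133). The difference between the 2 genes was not tested.

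**Figure D3:**
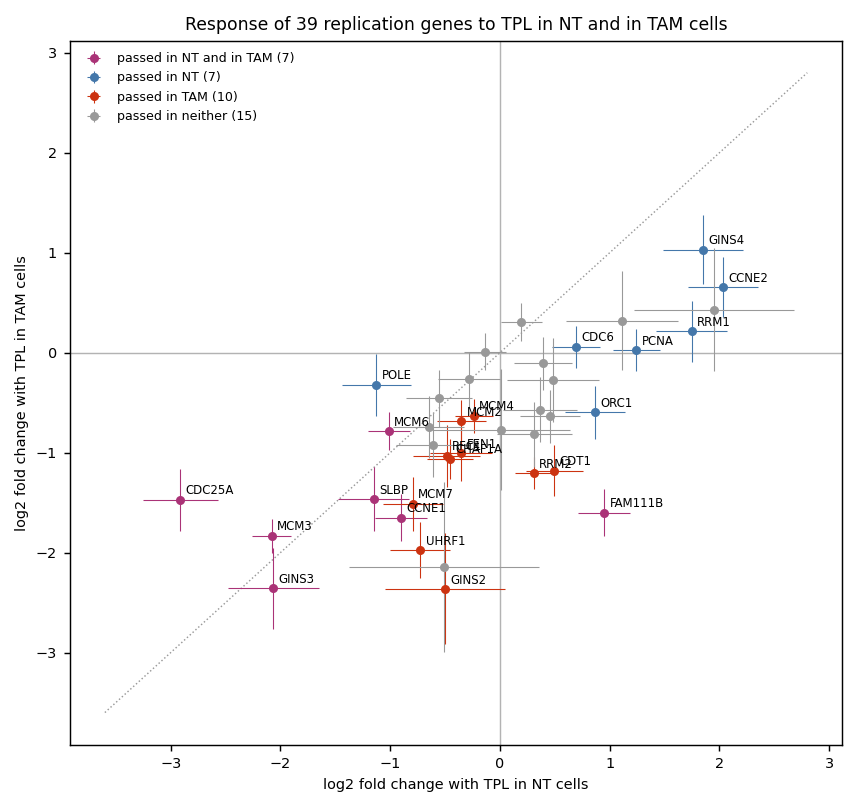
Log2 fold change with TPL in NT cells (horizontal) and in TAM cells (vertical) for 39 genes; bars are 1 SE of the edgeR fit, the dotted line marks equal change, and colours give the comparisons in which a gene passed an adjusted p of 0.05. MCM3, GINS3, CDC25A, SLBP, MCM6 and CCNE1 lie in the lower left, and FAM111B lies at 0.95 and -1.60.

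Whether the response to TPL differed between TAM and NT cells was tested as an interaction. No gene of the list passed, beside 0.0885% of all genes on the higher and 0.0767% on the lower side. An unadjusted p under 0.05 was found for 12 of the 39, beside 1799 of the 16948 genes tested. The median difference was -0.72 (all genes -0.02), and 31 of the 39 differences were negative, that is, lower with TPL in TAM than in NT cells. DESeq2 called 5 genes, all negative: FAM111B, RRM2, CDT1, PCNA and RRM1. The share of all genes called by DESeq2 is not given here. Limma on log2(FPKM + 1) called FAM111B alone. Without NT + TPL replicate 2 the median was -0.33.

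FAM111B had the smallest p. The study already names this gene, from the same data, as raised with TPL in NT cells and lowered in TAM cells. Its level was 1.48 and 2.12 FPKM in NT, 3.61 and 3.23 FPKM in NT + TPL, 8.04 and 7.23 FPKM in TAM, and 2.52 and 2.58 FPKM in TAM + TPL. The difference of the TPL effects was -2.55 ± 0.33 on the log2 scale (edgeR adjusted p = 0.0523). Over the alternative settings the adjusted p ran from 3.25e-07 (DESeq2) to 0.243. Its level rose with TPL in NT cells and fell with TPL in TAM cells, and the TPL libraries of the 2 cell states lay closer together than the DMSO libraries.

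RRM2, the small subunit of ribonucleotide reductase, was at 5.78 and 5.78 FPKM in NT, 7.76 and 6.64 FPKM in NT + TPL, 17.1 and 19.0 FPKM in TAM, and 8.90 and 7.27 FPKM in TAM + TPL. The difference was -1.51 ± 0.23 (edgeR adjusted p = 0.0876, and from 3.74e-05 in DESeq2 to 0.349 over the alternatives). CDT1, the licensing factor that is degraded in S phase, was at 4.31 and 3.20 FPKM in NT, 5.12 and 5.48 FPKM in NT + TPL, 14.8 and 10.2 FPKM in TAM, and 5.15 and 6.21 FPKM in TAM + TPL (-1.67 ± 0.36, edgeR adjusted p = 0.195, and from 0.00396 in DESeq2 to 0.562). In both genes the TAM libraries stood above the other 6. Those ran from 5.78 to 8.90 FPKM for RRM2 and from 3.20 to 6.21 FPKM for CDT1.

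In 5 of the 39 genes (CDT1, CHAF1B, FAM111B, ORC1 and RRM2) both TPL libraries lay above both DMSO libraries in NT cells and below them in TAM cells, on CPM. The same pattern was present in 1.52% of all tested genes, and the opposite pattern in 0 of the 39 and in 1.49% of all. The counts of this pattern carry no test of their own.

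The 9 genes that passed in none of the comparisons were E2F1, E2F2, POLA1, PRIM1, POLD1, RFC2, RFC5, LIG1 and TYMS. PRIM1, the primase subunit, shows the limit of the low counts: it was at 1.01 and 1.86 FPKM in NT, 1.87 and 0.18 FPKM in NT + TPL, 6.70 and 6.64 FPKM in TAM, and 1.10 and 2.01 FPKM in TAM + TPL, with 2 counts in its lowest library. TYMS, thymidylate synthase, was at 5.14 and 12.7 FPKM in NT + TPL and between 6.13 and 7.73 FPKM in all other libraries. RFC2 kept to between 9.57 and 14.4 FPKM in all 8 libraries.

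Reads of 4 genes of the list stood in more than 1 row of the tables. For GINS1, a GINS subunit, the row by gene ID held 34.1 and 6.10 counts in NT, 0 in both libraries of NT + TPL and of TAM, and 0 and 9.43 counts in TAM + TPL. With its rows summed it had 34.1 and 31.4 counts in NT, 28.8 and 47.5 counts in NT + TPL, 57.4 and 60.8 counts in TAM, and 45.7 and 36.6 counts in TAM + TPL, and no comparison passed. RRM1 kept its rise with TPL in NT cells when summed (log2 fold change 1.26 ± 0.19, edgeR adjusted p = 0.000385). Its difference of TAM against NT with DMSO shrank from 1.42 to 0.78 (edgeR adjusted p = 0.0236). Its difference of the TPL effects shrank from -1.53 to -1.09 (edgeR adjusted p = 0.106). SLBP fell when summed in NT cells (-1.23 ± 0.19, edgeR adjusted p = 0.000322) and in TAM cells (-1.46 ± 0.18, edgeR adjusted p = 0.000106). Exons of 15 of the 40 genes overlap exons of a gene on the other strand, among them those of MCM7 with AP4M1, CCNE2 with INTS8, CHAF1A with UBXN6 and TYMS with ENOSF1, and the use of strand in counting is not given in the sources used here, so reads of such pairs cannot be told apart.

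The list was set beside 65 other genes of origin licensing, the replication fork, the E2F and RB network and S phase, and beside 25 genes of mitosis. In TAM against NT with DMSO 7 of the 65 other genes were higher and 0 lower, with a median of 0.63 and 10 negative fitted values. An unadjusted p under 0.05 was found for 29 of the 65, beside 3380 of the 16948 genes tested. Of the 25 mitosis genes 22 were higher and 0 lower, with a median of 2.15, above the 1.39 of the replication list; the difference between the lists was not tested.

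With TPL, 20 of the 65 other genes fell and 7 rose in NT cells (30.8% and 10.8%, beside 19.8% and 17.2% of all genes), and 23 fell and 6 rose in TAM cells (35.4% and 9.23%, beside 18.6% and 14.3%). GMNN, geminin, the inhibitor of CDT1, was at 14.3 and 10.2 FPKM in NT, 1.96 and 2.10 FPKM in NT + TPL, 20.6 and 18.8 FPKM in TAM, and 4.02 and 3.88 FPKM in TAM + TPL (log2 fold change -2.61 ± 0.26 in NT and -2.30 ± 0.25 in TAM cells, edgeR adjusted p = 0.000731 and 0.00111). E2F4, a member of the E2F family that acts mainly as a repressor, was at 106 and 97.7 FPKM in NT, 36.0 and 36.6 FPKM in NT + TPL, 128 and 121 FPKM in TAM, and 40.6 and 39.5 FPKM in TAM + TPL. Both genes were thus lowered by TPL in either cell state.

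ASF1B, a histone chaperone that works with CAF-1, went the other way. It was at 1.2 and 0.57 FPKM in NT, 19.2 and 19.0 FPKM in NT + TPL, 5.97 and 6.67 FPKM in TAM, and 40.7 and 39.1 FPKM in TAM + TPL (4.41 ± 0.29 in NT and 2.61 ± 0.24 in TAM cells, edgeR adjusted p = 0.000253 and 0.000686). This was the largest rise among the 65 genes in each cell state.

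Of the mitosis genes 8 rose and 4 fell with TPL in NT cells (32% and 16%, beside 17.2% and 19.8% of all genes), and 1 rose and 9 fell in TAM cells (4% and 36%, beside 14.3% and 18.6%). NUSAP1, a spindle protein, rose in both, from 4.28 and 4.93 FPKM to 19.1 and 16.7 FPKM in NT cells and from 11.9 and 13.6 FPKM to 26.5 and 29.5 FPKM in TAM cells. CDC20, an activator of the anaphase-promoting complex, fell in both, from 12.9 and 12.8 FPKM to 8.77 and 6.24 FPKM in NT cells and from 39.3 and 42.5 FPKM to 11.7 and 14.5 FPKM in TAM cells. In the interaction 0 of the 65 and 0 of the 25 genes passed in edgeR, and the medians were -0.20 and -1.04. An unadjusted p under 0.05 was found for 6 and 16 of them, beside 1799 of the 16948 genes tested.

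**Figure D4:**
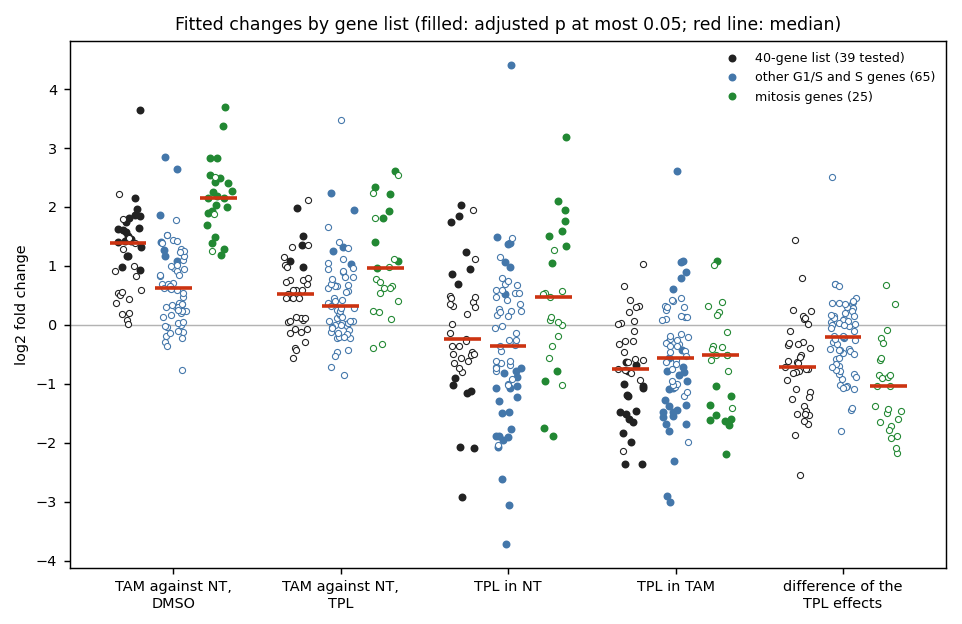
Fitted log2 fold changes of the replication list (black), 65 other G1/S and S phase genes (blue) and 25 mitosis genes (green) in the 5 comparisons, with 1 point per gene; filled points passed an adjusted p of 0.05 and red lines are medians. In TAM against NT with DMSO the medians are 1.39, 0.63 and 2.15, and in the difference of the TPL effects they are -0.72, -0.20 and -1.04, with no filled point.

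Genes with and without an E2F match upstream of the TSS were set side by side. Of the 17 tested genes with a match 7 were higher in TAM than in NT, and 9 fell with TPL in TAM cells. Of the 22 without a match 14 were higher in TAM and 8 fell. In NT cells TPL raised 1 and lowered 4 of the genes with a match, and it raised 6 and lowered 3 of those without. These splits were not tested. Without a match means only that the searched letters were absent. The close variant TTTGGCGG, present upstream of CDC6 and CDC45, was not searched.

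RNAPII was then examined at the promoters of the list. The peak lists hold positions without scores and 1 list per condition, so the presence of a peak has no replicate check. The main TSS lay in a listed peak for 38 of the 40 genes in the NT list (55.1% of 16584 genes) and for 32 after TPL (44.1%). In the TAM list this was so for 26 genes (48.6% of all genes), and after TPL for 18 (43.2%). In all 4 lists 16 of the genes had a peak, beside 36.4% of all genes, and 2 of them, E2F2 and LIG1, had none over the main TSS in any list, beside 41.8% of all genes. At another annotated TSS LIG1 had a peak in every list but that of TAM + TPL.

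In NT cells 6 of the 38 genes were without a peak after TPL (GINS2, MCM10, CCNE1, E2F1, PRIM1 and UHRF1), which was 15.8%, beside 22.8% of all genes with a peak in NT. In TAM cells 10 of the 26 were without a peak after TPL, which was 38.5%, beside 19.0% of all. These were MCM5, MCM6, MCM7, CDT1, GINS4, CDC25A, POLA1, PRIM1, TYMS and UHRF1. Of the 38 genes with a peak in NT, 12 had none in TAM (31.6%, beside 14.7% of all genes), and no gene of the list was called lower in RNA in TAM. A peak within 1 kb of the main TSS was listed in TAM for 6 of these 12 (MCM2, MCM4, ORC1, CDC45, GINS3 and RFC5) and in TAM + TPL for 3 of the 10 (MCM7, CDT1 and TYMS). These shares were 50% and 30%, beside 59.9% and 22.4% over all genes. By that wider window 6 of 39 genes had a peak in NT and none in TAM (15.4%, beside 7.28% of all genes), and 11 of 33 had one in TAM and none in TAM + TPL (33.3%, beside 18.5%).

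The 21 genes called higher in TAM all had a peak in NT, and 13 of them had one in TAM; of the 18 not called, 16 and 12 had one. Of the 17 genes whose RNA fell with TPL in TAM cells 11 had a peak in TAM and 6 in TAM + TPL, and of the 22 that were not called 14 and 11 had one. The 7 genes whose RNA rose with TPL in NT cells had a peak both before and after TPL, as did 6 of the 7 that fell; of the 25 not called 23 had a peak before and 18 after TPL. These splits were not tested, and the lists of NT and NT + TPL cover 55.1% and 44.1% of all genes.

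RRM2, UHRF1 and PCNA serve as examples of the peaks and do not span their range. The TAM peak was 140 bases wide at POLE, and at POLD1 it was wider than in NT (1714 against 1399 bases). At RRM2 the peak covered chr2:10261732-10263139 (hg19) in NT, 1408 bases across the TSS at 10262866, and it was 798 bases wide in NT + TPL, 286 bases in TAM and 218 bases in TAM + TPL. At UHRF1 it covered chr19:4909379-4911343 in NT, reaching 1830 bases into the gene, was 225 bases wide in TAM, and was listed in neither TPL condition. PCNA had a peak in every list, 1159 bases wide in NT, 1401 bases in NT + TPL, 626 bases in TAM and 566 bases in TAM + TPL.

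Over the genes of the list with a peak, the median width was 619 bases in NT, 662 bases in NT + TPL, 276 bases in TAM and 367 bases in TAM + TPL. Over all genes it was 721, 641, 485 and 515 bases. The peak names of the TAM list carry another threshold tag than those of the other 3 lists, and part of its peaks are split, so the part of peak calling in the comparisons with TAM cannot be told apart from that of the cells. At MCM4, MCM7, ORC1, POLE and FEN1 the NT peak also held the main TSS of a neighbouring gene.

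**Figure D5:**
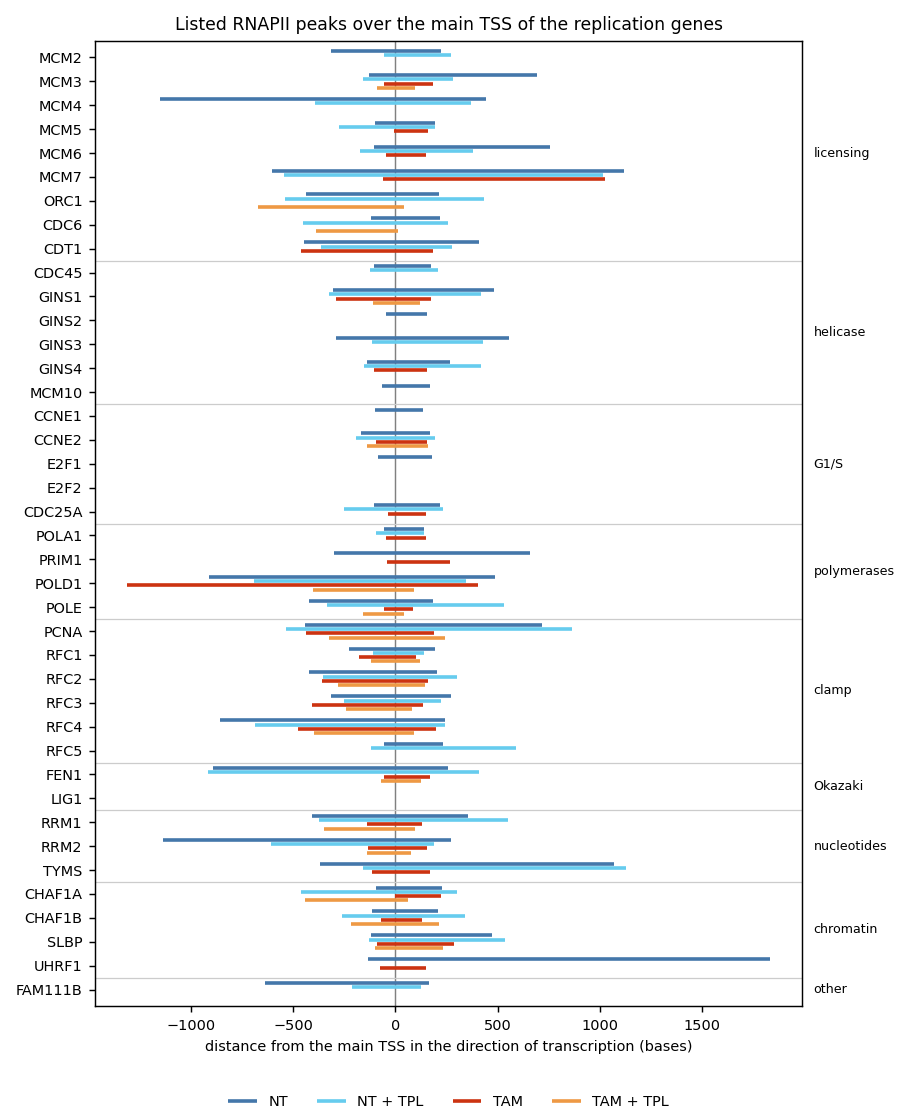
Extent of the listed RNAPII peak that covers the main TSS of each of the 40 genes, in bases from the TSS along the direction of transcription, with 1 line per condition; a missing line means that no listed peak covers the TSS. NT lines are present for 38 genes and NT + TPL lines for 32, whereas TAM lines are present for 26 genes and TAM + TPL lines for 18.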

How the data were processed

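RNA was sequenced in 8 libraries (2 per group), and RNAPII ChIP-seq peaks were listed once per condition. Per the study's methods, reads were aligned with Bowtie2 and quantified with RSEM; the deposited tables give the authors' expected counts and FPKM per gene, the latter scaled by transcript length and depth. Gene length columns were not tested. The authors called peaks on hg19 with MACS and deposited positions only; whether replicates were pooled is not given in the sources used here. Strand use in counting is not given either.

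Expected counts were rounded to whole numbers, filtered with filterByExpr (16948 genes kept), scaled by TMM and fitted over 4 groups with the quasi-likelihood test of edgeR 4.0.16, with Benjamini-Hochberg adjustment over all genes; "passed", "rose", "fell" and "called" mean an adjusted p of at most 0.05. DESeq2 1.42.0 and limma 3.58.1 on log2(FPKM + 1) and log2(FPKM + 0.1) were alternatives, with other scalings, filters, a replicate block and each library left out. FPKM were printed per library. Each SE of an edgeR value was derived from its test, as the absolute log2 fold change divided by the square root of the F statistic. Of 23604 genes 21077 were named by gene ID, 2384 by accession, and 143 could not be matched. The TSS is that of the main GENCODE (release 44, lifted to GRCh37) transcript. The scripts were checked on simulated data.

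The genes, lists and comparisons were chosen with earlier results of these data known. Genes named with every library's value were, in each comparison, the 5 largest rises and falls among those that passed, or the 3 with the smallest p where none passed; from the other lists at most 3 per direction with the smallest p were named. The RFC2, PRIM1, TYMS and GINS1 levels, and the widths at RRM2, UHRF1, PCNA, POLE and POLD1, were singled out after their values were seen.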

Additional observations from a re-analysis of the deposited data

Results flagged for a closer look

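The row of GINS1 under a RefSeq accession, which entered only the alternative with rows summed, held reads in all treated groups. Its mean expected count was 38.18 in the NT + TPL group, 59.1 in the TAM group and 36.44 in the TAM + TPL group, above both NT libraries, which held 0 and 25.3 counts. With the rows summed, NT replicate 1 had 34.1 and NT replicate 2 had 31.4 counts. The groups hold 2 samples each, too few for a check of single samples that stand apart.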

How the results depend on the processing

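With 2 libraries per group the number of calls moved more than the direction of the medians, which kept their sign in every setting. All medians are log2 fold changes, and numbers of calls are genes of the list past an adjusted p of 0.05. Scaling by upper quartile raised the median of all genes with TPL to 0.31 in NT and 0.29 in TAM cells, and scaling to equal GAPDH lowered it to -0.26 with TPL in NT cells, and to -0.50 in TAM against NT with DMSO and -0.25 with TPL. Relative to all genes, the median of the list lay between -0.35 and -0.32 with TPL in NT, between -0.80 and -0.78 with TPL in TAM, between 1.39 and 1.43 in TAM against NT with DMSO, between 0.56 and 0.57 with TPL, and between -0.73 and -0.69 in the difference, over all 5 scalings. The cause of the following changes was not tested. For settings other than the main fit the share of all genes called is not given, here or above. Numbers of calls in those settings therefore do not set the list against all genes.

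With TPL in NT the median was -0.017 by upper quartile, -0.61 at equal GAPDH and -0.002 with at least 10 counts in every library. By upper quartile 8 genes rose and 4 fell. With TPL in TAM it was -0.51, -0.59 with at least 10 counts, and -0.54 in limma on log2(FPKM + 1). In TAM against NT with DMSO it was 0.89 at equal GAPDH, with 8 calls, and 1.02 in limma on log2(FPKM + 1). In TAM against NT with TPL it was 0.30 at equal GAPDH, with 2 calls; the number was 14 in DESeq2, 2 with no filter, 11 with at least 10 counts, 8 in either limma fit, and 13 with the rows of a gene summed, a setting chosen after seeing the data. In the difference of the TPL effects it was -0.51 at equal GAPDH and -0.47 and -0.56 in limma, and the number was 5 in DESeq2, 1 by upper quartile (FAM111B), 1 in limma on log2(FPKM + 1) (FAM111B), 2 with at least 10 counts and 2 with rows summed (FAM111B and RRM2 in both). At the study's thresholds the calls in edgeR were 1 with TPL in NT, 1 with TPL in TAM, and 0 in both TAM comparisons. In the TAM comparisons with DMSO and with TPL, 29 and 16 genes had an unadjusted p under 0.05. This was so for 3380 and 3608 of the 16948 genes tested.

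With the replicate number as a block 13 genes were called in TAM against NT with DMSO and 2 with TPL, and other numbers of calls stayed within 1.5 times; POLE (TPL in NT), CDC45 and MCM5 (with DMSO) and MCM10, MCM2 and CDC6 (with TPL) lost their calls. The correlation of same-numbered deviations ran from -0.18 to 0.06. With 2 libraries per group these values cannot show whether the replicates were paired, and the labels give only a number.

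Leaving out single libraries gave from 8 to 13 calls and medians from -0.36 to -0.058 with TPL in NT, from 7 to 20 calls and medians from -0.75 to -0.63 with TPL in TAM, from 4 to 25 calls and medians from 1.14 to 1.39 in TAM against NT with DMSO, from 0 to 4 calls and medians from 0.49 to 0.87 with TPL, and 0 calls and medians from -0.73 to -0.33 in the difference. Where an arm kept 1 library, it was assumed to vary like the other groups. Of the 28 single-gene values 0 reversed in direction; 25 of them were called with all libraries, and 63 of their 200 fits without a library lost the call.

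With peaks of at least 500 bases only, 23 genes had a peak in NT (39.2% of all genes), 22 after TPL (28.7%), 7 in TAM (23.3%) and 3 after TPL (22.4%). Low counts limit CDC45, GINS2 and PRIM1.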
